A study of Homo sapiens with 4 samples.

Results

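The comparison described here is that of A549 cells transfected with siRNA to ARRB1, the gene of β-arrestin-1, with A549 cells transfected with control siRNA. A549 is a human lung adenocarcinoma line. All 4 arrays of the series took part, 2 with each siRNA, and each ARRB1 siRNA array was matched with the control siRNA array of the same treatment. The cells of the serum starved pair were kept without serum for 36 h and received no nicotine, and the cells of the nicotine pair were likewise starved for 36 h and received 1 µM nicotine for 24 h, so both siRNAs were compared only in starved cells. Each condition was measured on 1 array, Human Genome U133 Plus 2.0, and no array was repeated. Differences are given as log2 ARRB1 siRNA signal minus log2 control siRNA signal, so that 1 is a 2-fold higher and -1 a 2-fold lower signal, and the 2 pairs share no array. Of 19775 genes with a probe set of their own in the gene table, the 12521 whose brightest probe set had a mean signal at or above the median of all probe sets (66.3) were compared and are called expressed. Of these, 62 genes were at least 2-fold apart in the same direction in both pairs (0.495%), and 37 of them were outside the lists of interferon stimulated genes and are described first.

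β-arrestin-1 is a cytoplasmic scaffold. It binds activated and phosphorylated G-protein-coupled receptors, uncouples them from their G proteins, brings them to clathrin-coated pits, and also assembles kinases such as Src and members of the ERK cascade at the receptor. An siRNA lowers the RNA of its target through the RNA interference machinery. Each siRNA here was 1 purchased reagent in 1 cell line, so that a response to ARRB1 depletion and any other response to that reagent cannot be told apart.

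ARRB1 RNA itself was lower in the cells labelled as depleted. On its brightest probe set (43511_s_at) control siRNA cells had signals of 352 without and 331 with nicotine, and ARRB1 siRNA cells had 191 and 224. Signals are given in this order throughout, first without and then with nicotine. Both ARRB1 siRNA arrays lay below both control arrays, with log2 differences of -0.88 and -0.56. The signal fell short of a 2-fold difference on this probe set in either pair. Of 7 ARRB1 probe sets, 6 were lower in both pairs, and the median probe set kept 54.2% of its control signal without nicotine and 65.7% with it. The exception, 221861_at, had 104% and 108%. Among the 6 lower probe sets, 218832_x_at and 228444_at lay below the limit for an expressed gene, and the 65.7% is the value of 228444_at. In bulk RNA such as this, a strong loss of ARRB1 RNA in part of the cells and a partial loss in every cell cannot be told apart. The keratins of simple epithelia were bright on every array, with KRT8, KRT18 and KRT7 signals from 14406 to 32303, and PTPRC, CD3E, CD14, CDH5 and PDGFRB, which define blood, endothelial and mural cells, lay below the limit for an expressed gene. Among other markers expected to be absent, COL1A1, PECAM1 and DCN passed that limit, with signals of 425 to 573, 157 to 205 and 75.05 to 91.7. The medians of the 4 arrays lay between 68.6 and 73.3. Neither RNA quality nor array batches are given in the labels used here.

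Of the expressed genes, 21 were at least 2-fold higher in both pairs (0.168%) and 41 were at least 2-fold lower in both (0.327%). None of the 21 higher genes and 25 of the 41 lower genes are on the interferon lists, which leaves 21 higher (0.17%) and 16 lower (0.13%) of 12326 expressed genes outside them. The pairs taken singly gave longer lists. In the serum starved pair 127 genes were at least 2-fold higher (1.01%) and 98 lower (0.783%), and in the nicotine pair 110 were higher (0.879%) and 175 lower (1.4%). The shared higher genes were therefore 16.5% of the serum starved list and 19.1% of the nicotine list, and the shared lower genes 41.8% and 23.4%. In contrast, only 4 genes (0.0319%) were at least 2-fold apart in opposite directions. Without any limit of size, 4333 genes were higher in both pairs (34.6%) and 3755 lower in both (30%). Across the 12326 genes outside the interferon lists the 2 pair differences had a Pearson correlation of 0.337, and across the 195 on the lists one of 0.870. These correlations are across genes, which are not independent replicates, and the probe sets of a pair share their arrays.

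**Figure D1:**
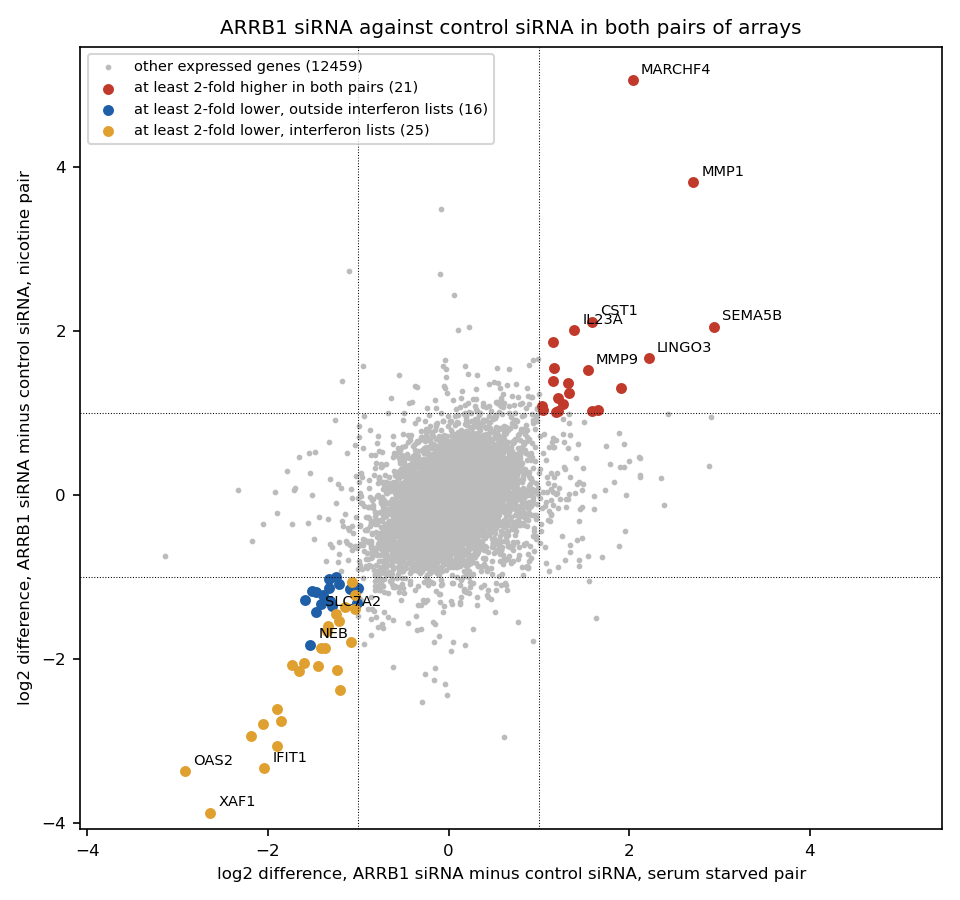
Each point is 1 of 12521 expressed genes, with the log2 difference between ARRB1 siRNA and control siRNA without nicotine on the x axis and with nicotine on the y axis. Dotted lines mark 2-fold. The 21 higher genes (red) lie in the upper right corner with MMP1 and MARCHF4 farthest out, and the 41 lower genes in the lower left corner, where the interferon genes (orange, 25) reach farther down the y axis than the 16 others (blue).

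A second description of precision came from a limma fit with siRNA and treatment as additive terms, in which each siRNA is represented by 2 arrays, the spread is estimated from 1 residual degree of freedom per gene, and any difference between the treatments in the response to the siRNA counts as error. With moderation by trend and robust settings it called 455 genes higher (3.63%) and 478 lower (3.82%) at an adjusted p below 0.05. The same fit with plain eBayes moderation called 0 in either direction, with 1933 genes at an unadjusted p below 0.05, and its smallest adjusted p was 0.181. The adjusted p values of this fit are therefore given only beside the signals. They measure agreement between 2 pairs of arrays, which nothing in the labels ties to separate cultures. The genes described below were chosen for a 2-fold difference in the same 2 pairs, so that a small p for one of them is no further support, and none is given for the 11 higher genes whose mean control signal was below the limit for an expressed gene.

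Genes of extracellular proteolysis were among the higher genes. MMP1, interstitial collagenase, which cleaves fibrillar collagens, had 44.5 and 24.5 in control cells and 291 and 345 in ARRB1 siRNA cells (204475_at). Both control signals were below the medians of their arrays and both ARRB1 siRNA signals well above, with log2 differences of 2.71 and 3.82. Their size depends on the dim control values, and MMP1 entered the expressed genes only through its ARRB1 siRNA signals. MMP9, the gelatinase that degrades basement membrane collagen, was measurable in control cells, with 134 and 151, and had 390 and 436 in ARRB1 siRNA cells. Its 2 pair differences were almost equal, 1.54 and 1.53 (SE of the mean 0.20, adjusted p = 0.000168 in limma). CST1, a secreted inhibitor of cysteine proteases, was brighter than either, with 295 and 271 in control cells and 885 and 1174 in ARRB1 siRNA cells. Its mean log2 difference of 1.85 had an SE of 0.16 and an adjusted p of 6.94e-06 in limma, while genes as bright had mean differences with an SD of 0.30. CST1, CST2 and CST4 are near-identical in sequence, so that their probe sets may share transcripts. CST4 had signals of 239 and 370 in control cells and 676 and 688 in ARRB1 siRNA cells, with pair differences of 1.502 and 0.89, and so missed the 2-fold limit in the nicotine pair. Of 44 expressed proteases and inhibitors in a list of 57, MMP1, MMP9 and CST1 were at least 2-fold higher, against 0.168% of all expressed genes. This list and the others below were chosen with earlier results of these data known. MMP1 is among the 44 only through its ARRB1 siRNA signals, so that the count is a description and no support. In the list 0 genes were 2-fold lower, and its median was 0.08 against 0.02 for all expressed genes. HABP2, a serine protease, and ANPEP, an aminopeptidase, are not on this list and were at least 2-fold lower in both pairs.

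A further set of higher genes is known from the cornified envelope and from keratinizing epithelia, and their transcripts were dim in control A549 cells. SCEL, sciellin, a precursor of the cornified envelope, had 38.5 and 64.4 in control cells and 144 and 160 in ARRB1 siRNA cells, with pair differences of 1.91 and 1.31. SBSN, suprabasin, which is secreted by differentiating keratinocytes, had 82.5 and 74.9 in control cells and 209 and 177 in ARRB1 siRNA cells. SPINK6, an inhibitor of kallikrein proteases of the skin, had 49.1 and 47.4 against 123 and 123. In these 3 genes the ARRB1 siRNA arrays were well apart from the control arrays and close to each other. CSTA, cystatin A, a cytosolic cysteine protease inhibitor of the cornified envelope, was the brightest of them, with 164 and 214 in control cells and 367 and 624 in ARRB1 siRNA cells. Its mean difference was 1.35 (SE 0.18, adjusted p = 0.000271 in limma). KRT33B, a hair keratin, had 48.0 and 49.2 in control cells and 151 and 101 in ARRB1 siRNA cells. KRT33B closely resembles KRT33A, and its probe set may not separate them. In a list of 67 epidermal differentiation genes, drawn up after these values were seen and so no support for them, 25 were expressed. Of these, 4 were at least 2-fold higher (SCEL, CSTA, SPINK6 and SBSN), against 0.168% of all expressed genes, and 0 were lower. SCEL and SPINK6 are among the 25 only through their ARRB1 siRNA signals, as their control signals lay below the limit of 66.3. The median of the list was 0.08. Most of that list therefore stayed near 0, and its next member, TGM2, a transglutaminase, had a mean of 0.79. The median over the 25 genes was 0.22 in the serum starved and 0.10 in the nicotine pair.

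Of 49 listed chemokines, cytokines and receptors 34 were expressed, 1 (IL23A) was at least 2-fold higher, against 0.168% of all expressed genes, and 0 were lower. In the list 18 were higher in both pairs (52.9%, against 34.6% of all expressed genes), with a median of 0.09 (0.06 after quantile normalization). IL23A, the p19 subunit of interleukin-23, had 128 and 90.6 in control cells and 336 and 366 in ARRB1 siRNA cells (220054_at), with pair differences of 1.39 and 2.01 and a mean of 1.70 (SE 0.23, adjusted p = 0.000358 in limma). PTX3, CCL17 and IL31RA are higher genes outside that list. PTX3, a soluble pattern recognition protein, had 176 and 192 against 407 and 435. CCL17, a chemokine that attracts T cells through CCR4, was near the limit of expression, with 65.1 and 42.4 in control cells and 157 and 91.3 in ARRB1 siRNA cells. With nicotine, the ARRB1 siRNA signal of CCL17 was thus less than 2-fold above the serum starved control signal. IL31RA, a receptor subunit for interleukin-31, had 85.9 and 104 in control cells and 195 and 211 in ARRB1 siRNA cells. CXCL16, a listed chemokine of the cell surface, was lower in both pairs, with 563 and 452 in control cells and 335 and 344 in ARRB1 siRNA cells.

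HBEGF, a ligand of the epidermal growth factor receptor that is shed from the membrane, had 357 and 318 in control cells and 794 and 832 in ARRB1 siRNA cells. Its mean log2 difference of 1.27 (SE 0.14, adjusted p = 5.99e-05 in limma) went with a second expressed probe set (38037_at) at 0.70 and 0.90, lower in size but in the same direction. PTPRR, a tyrosine phosphatase that acts on ERK, was dim, with 64.7 and 56.5 in control cells and 132.6 and 119 in ARRB1 siRNA cells. Its second expressed probe set (206084_at) had 68.7 and 43.1 against 117 and 132. BCL2A1, an anti-apoptotic member of the BCL2 family, was the brightest of the higher genes in control cells, with 700 and 675, and had 1443 and 1390 in ARRB1 siRNA cells. Its pair differences were 1.04 and 1.04, and genes as bright had mean differences with an SD of 0.25. VNN1, a pantetheinase at the cell surface, had 65.7 and 60.2 in control cells and 153 and 122 in ARRB1 siRNA cells. Among 44 expressed genes of EGF receptor and ERK signaling, HBEGF alone was at least 2-fold apart, against 0.495% of all expressed genes, and the median was 0.03. IER2, an immediate early gene, followed it, with 2456 and 2901 in control cells and 4687 and 5332 in ARRB1 siRNA cells and a mean of 0.91. NRG1, a ligand of ERBB3, was lower on its brightest probe set, with 3472 and 3242 against 1982 and 2362 (mean -0.63). With the median over its expressed probe sets the mean was 0.06, so that the lower value was not shared by all of them.

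MARCHF4, a membrane-bound ubiquitin ligase, had the highest mean difference of all expressed genes, 3.55, but its pairs were uneven. Its signals were 64.9 and 15.2 in control cells and 267 and 509 in ARRB1 siRNA cells, so that the serum starved pair differed by 2.04 and the nicotine pair by 5.06. The control array with nicotine was far below its median of 73.3 for this probe set, and the size of the nicotine difference depends on that dim value. SEMA5B, a transmembrane semaphorin of axon guidance, had 37.0 and 53.02 in control cells and 283 and 220 in ARRB1 siRNA cells, with differences of 2.94 and 2.05. LINGO3, a leucine-rich repeat membrane protein, had 53.1 and 56.4 against 247 and 179. All 4 control signals of these 2 genes lay below the array medians, and all 4 ARRB1 siRNA signals lay above. CASC7, a non-coding RNA in the gene table, had 86.4 and 83.9 in control cells and 193 and 305 in ARRB1 siRNA cells. RBM34, an RNA-binding protein, had 49.5 and 73.2 against 149 and 149.

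Many of the higher genes were dim in control cells. For 11 of the 21, both control signals were below the medians of their arrays. For 0 of the 21 were both ARRB1 siRNA signals below them. Likewise, 0 of the 16 lower genes outside the interferon lists had both control signals below the medians. Both counts of 0 were fixed in advance, as the filter and the 2-fold limit together keep the brighter side above the medians. They are no contrast between higher and lower genes. Large differences were in general more frequent among dim genes. In either direction, 23 of 2490 expressed genes with a mean signal of 66 to 200 were at least 2-fold apart in both pairs (0.924%), against 25 of 4543 at 200 to 1000 (0.55%) and 14 of 5488 over 1000 (0.255%). A gene as dim as these in control cells enters the expressed genes only if its ARRB1 siRNA signals are high, so that the counts of higher genes carry no weight of their own for such genes. The mean control signal was below the limit of 66.3 for 11 of the 21 higher genes, against 1.41% of all expressed genes, and the mean ARRB1 siRNA signal was below it for 2 of the 16 lower genes. The part of low signal in the higher genes was not tested. With every signal below the common median of all 4 arrays raised to it, 16 of the 21 stayed at least 2-fold higher, as did 15 of the 16 lower genes.

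**Figure D2:**
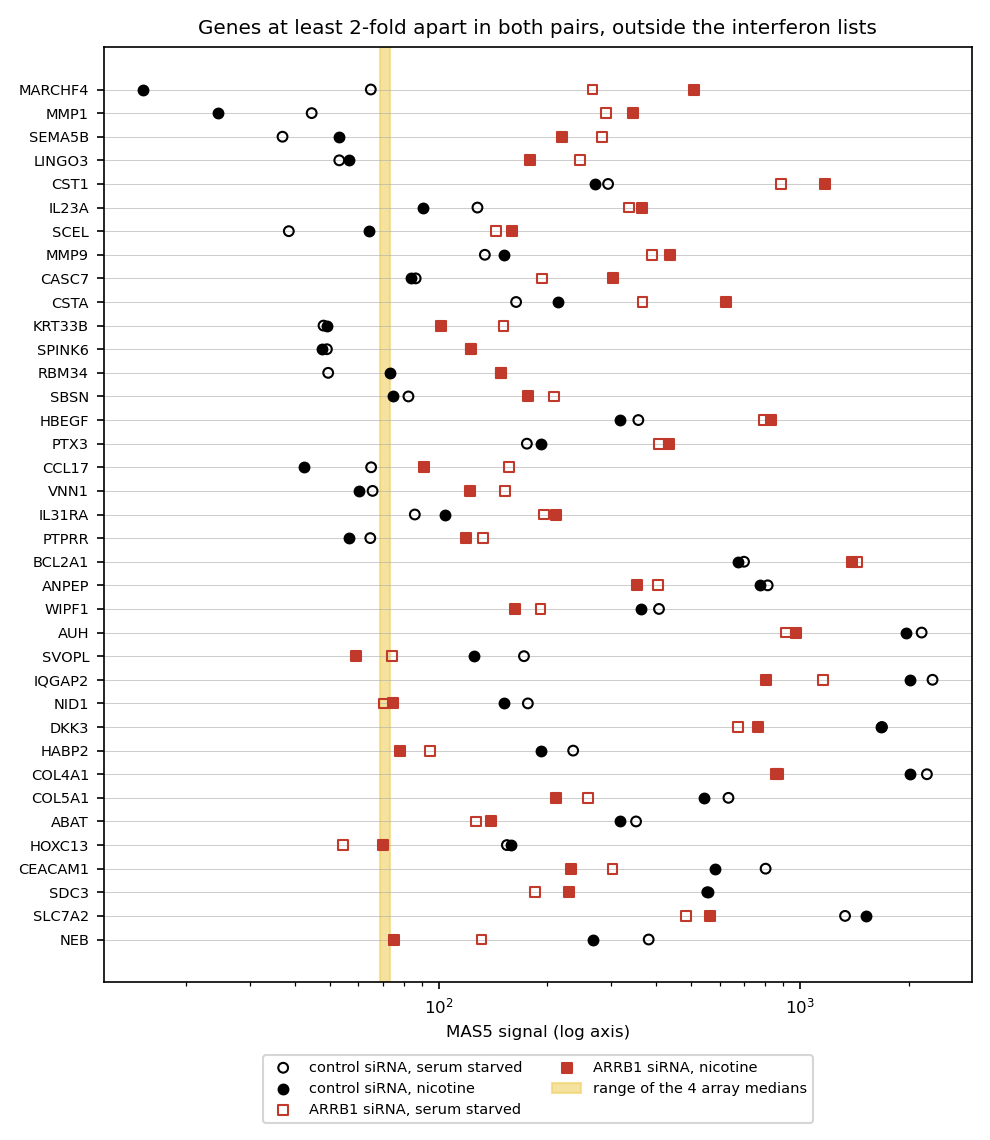
The MAS5 signals of the 37 genes at least 2-fold apart in both pairs outside the interferon lists are plotted on a log axis, with circles for control siRNA, squares for ARRB1 siRNA, open symbols for serum starved and filled symbols for nicotine treated cells (some overlap). Genes are sorted by mean difference. The yellow band spans the 4 array medians, 68.6 to 73.3, and 11 of the 21 higher genes have both circles at or left of it.

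The 16 lower genes outside the interferon lists all had mean control signals above the limit for an expressed gene, as their selection requires. Of 46 expressed genes of matrix and basement membrane, 3 (COL5A1, COL4A1 and NID1) were at least 2-fold lower, against 0.13% of expressed genes outside the interferon lists, and 0 were higher. In the list 21 were lower in both pairs (45.7%, against 30% of all expressed genes) and 11 higher (23.9%, against 34.6%), and the median was -0.11. COL4A1, the α1 chain of type IV collagen of basement membranes, had 2246 and 2022 in control cells and 857 and 871 in ARRB1 siRNA cells (211980_at). Both ARRB1 siRNA signals were near 40% of the controls, and the mean log2 difference of -1.30 had an SE of 0.11 and an adjusted p of 5.47e-06 in limma. COL5A1, a chain of the fibrillar type V collagen, had 634 and 541 in control cells and 259 and 211 in ARRB1 siRNA cells, with a mean of -1.33. NID1, nidogen-1, which links laminin and type IV collagen networks, was dimmer, with 177 and 152 against 70.7 and 74.7. Its ARRB1 siRNA signals lay near the medians of their arrays. SDC3, a heparan sulfate proteoglycan of the membrane, had 554 and 557 in control cells and 185 and 229 in ARRB1 siRNA cells. HABP2, a hyaluronan-binding serine protease, had 236 and 192 against 94.9 and 78.4. SDC3 and HABP2 are not on the matrix list. SPARC, a listed gene and a collagen-binding matrix glycoprotein, had 483 and 646 in control cells and 276 and 229 in ARRB1 siRNA cells, and missed the limit in the serum starved pair (-0.81). NID2, the other nidogen, went against NID1, with 693 and 600 in control cells and 1183 and 1373 in ARRB1 siRNA cells, and was singled out after its values were seen.

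DKK3, a secreted protein of the Dickkopf family, had 1687 and 1678 in control cells and 675 and 766 in ARRB1 siRNA cells, a mean of -1.23 (SE 0.12, adjusted p = 1.25e-05 in limma). Its 3 other expressed probe sets were lower in both pairs as well, with means of -1.30, -1.16 and -0.54. In the list of Wnt pathway genes, 30 were expressed and DKK3 alone was at least 2-fold apart, against 0.495% of all expressed genes. In both pairs 15 were lower (50%, against 30% of all expressed genes) and 5 higher (16.7%, against 34.6%), and the median was -0.18. AXIN2, a feedback inhibitor induced by β-catenin, had 1162 and 1108 in control cells and 641 and 609 in ARRB1 siRNA cells, with pair differences of -0.86 and -0.86. TNFRSF19, a receptor of the TNF family, had 352 and 349 against 230 and 160. These 2 genes stayed short of 2-fold in at least 1 pair.

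Among 49 expressed integrins and adhesion genes, 1 (CEACAM1) was at least 2-fold lower, against 0.13% of expressed genes outside the interferon lists, and 0 were higher. In the list 20 were lower in both pairs (40.8%, against 30% of all expressed genes) and 9 higher (18.4%, against 34.6%), and the median was -0.04. CEACAM1, a cell adhesion molecule of the carcinoembryonic antigen family, had 804 and 583 in control cells and 303 and 233 in ARRB1 siRNA cells (209498_at), with differences of -1.41 and -1.33. Another of its probe sets (211889_x_at) had -1.60 and -1.40, and the 2 remaining expressed ones were also lower in both pairs. CEACAM family members share much sequence, so that its probe sets may cross-hybridize. WIPF1, IQGAP2 and NEB, which bind actin or its regulators, are on none of the lists. In the list of actin cytoskeleton genes 0 of 48 were 2-fold apart. In both pairs 23 were higher (47.9%, against 34.6% of all expressed genes) and 12 lower (25%, against 30%), with a median of 0.11 (0.01 after quantile normalization). WIPF1, which binds the actin regulator WASP, had 407 and 362 in control cells and 191 and 163 in ARRB1 siRNA cells. A second WIPF1 probe set (202665_s_at) did not follow, with 79.3 and 163 against 101 and 136. IQGAP2, a scaffold of CDC42, RAC1 and actin, had 2328 and 2013 in control cells and 1156 and 804 in ARRB1 siRNA cells. NEB, nebulin, a giant actin-binding protein of muscle thin filaments, had the lowest mean of these 16 genes, -1.68, from 381 and 268 to 132 and 75.5. ANPEP, the membrane aminopeptidase CD13, had 814 and 776 against 406 and 354. CDH1, E-cadherin, was lower without reaching 2-fold, at 5218 and 4812 against 3201 and 2827 (mean -0.74, SE 0.09, adjusted p = 0.000168 in limma).

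The remaining lower genes are on none of the lists. SLC7A2, a transporter of arginine and other cationic amino acids, had 1333 and 1519 in control cells and 483 and 563 in ARRB1 siRNA cells. Its pair differences of -1.46 and -1.43 were close, and the mean had an SE of 0.12 and an adjusted p of 4.85e-06 in limma. AUH, a mitochondrial hydratase of leucine breakdown that also binds AU-rich RNA, had 2172 and 1961 against 914 and 976. ABAT, the mitochondrial GABA transaminase, had 352 and 318 in control cells and 127 and 140 in ARRB1 siRNA cells. Its second expressed probe set was lower by less, -0.75 and -0.18. SVOPL, which resembles synaptic vesicle transporters, had 172 and 126 against 74.3 and 59.0, and HOXC13, a homeobox factor of hair and nail, had 155 and 159 against 54.3 and 70.1. The ARRB1 siRNA signals of SVOPL and HOXC13 were near or below the array medians.

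Other probe sets of the same genes gave a check within the arrays. Among the 21 higher genes, HBEGF and PTPRR had 1 other expressed probe set each, and both of these were higher in both pairs, though 0 of the 2 by 2-fold in both. Among the 16 lower genes outside the interferon lists, 7 genes had 12 other expressed probe sets, of which 11 were lower in both pairs and 3 at least 2-fold lower, 1 each for CEACAM1, COL5A1 and DKK3. The exception was the WIPF1 probe set above. The second COL4A1 probe set (211981_at) was lower by less than the brightest one, -0.47 and -0.55. Probe sets of a gene share its RNA and its arrays and are not replicates. For the 28 genes without another expressed probe set, among them MMP1, MMP9 and CST1, the arrays hold no such check.

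**Figure D3:**
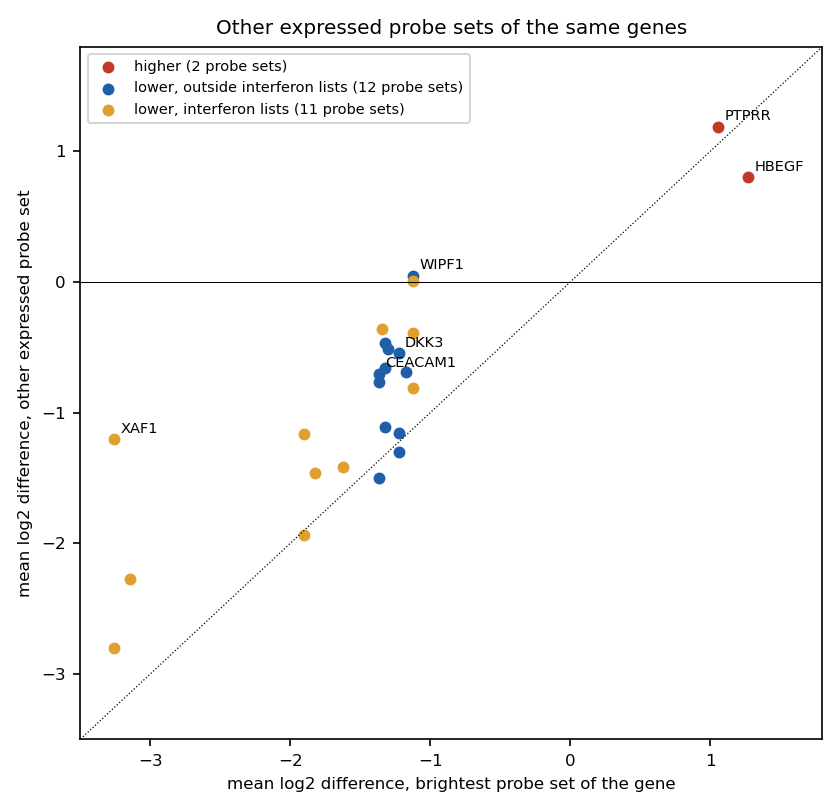
The mean log2 difference of each other expressed probe set (y axis) is plotted against that of the brightest probe set of the gene (x axis), for the genes at least 2-fold apart in both pairs. The dotted line marks equality. All 25 probe sets except those of WIPF1 and TRIM14 at 0.05 and 0.00 lie on the same side of 0 as the brightest one, most of the lower ones nearer to 0.

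The 25 interferon genes reached the largest of the lower differences, from -1.06 to -3.26 in the mean. They belong to the antiviral effectors and sensors induced through interferon receptors and STAT factors. XAF1, a pro-apoptotic interferon target, had 1162 and 1278 in control cells and 187 and 87.0 in ARRB1 siRNA cells. OAS2, which makes the second messenger that activates RNase L, had 936 and 1217 against 123 and 118. IFIT1, which binds foreign 5′ ends of RNA, had 6694 and 8735 in control cells and 1627 and 865 in ARRB1 siRNA cells. MX1, IFI44L and CMPK2 followed, with means of -2.56, -2.48 and -2.43. For 24 of the 25 genes the difference was larger in the nicotine pair, with a median of -1.42 in the serum starved and -2.08 in the nicotine pair. The same held for 5 of the 16 other lower genes, with medians of -1.32 and -1.20, and for 9 of the 21 higher genes. With 1 array per condition, a difference between the pairs has no test. In the core interferon list, 62 of 66 expressed genes were lower in both pairs (93.9%, against 30% of all expressed genes), with a median of -0.95. Of the list, 24 were at least 2-fold lower in both pairs, against 0.327% of all expressed genes. The part of the interferon response in the other differences was not tested.

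Promoter sequences were read from RefSeq for the members that the table of gene starts holds (GRCh38.p14, 250 bases before to 50 after each start). A sequence was found for 44 of the 62 genes, 25 of them outside the interferon lists, and any start of a gene was counted. In all, 3 motifs were searched on both strands after the values were seen. The AP-1 element, the binding site of FOS and JUN dimers, was searched as TGANTCA, the interferon-stimulated response element (ISRE) as a pair of GAAA repeats with 2 bases of any kind between them, and the NF-kappaB element as GGG followed by any 2 bases and then by TTTCC. The AP-1 motif occurred in 4 of the 12 higher genes that had a sequence (33.3%), namely IL23A, SBSN, SCEL and SPINK6. For the rest of the 21 higher genes no sequence was found, so that they were not searched. The motif also occurred in 2 of 13 lower genes outside the interferon lists (15.4%), in 1 of 19 lower interferon genes (5.26%), and in 7.18% of 10193 expressed genes with a promoter. SBSN held it at 2 places, starting 173 and 71 bases before the start, IL23A 77 bases and SCEL 49 bases before it. The search allowed any middle base, and in these 3 genes the match read TGACTCA or TGAGTCA. In SPINK6 it read TGAATCA and began 1 base before the start, so that it overlaps the start. The match in the lower interferon gene, MX1, read TGATTCA. The ISRE pattern occurred in 15 of the 19 interferon genes (78.9%) and in 3.94% of expressed genes. Outside the lists it was present in CEACAM1, 116 bases before the start, and in WIPF1 among the lower genes, and in BCL2A1 among the higher genes. The NF-kappaB pattern was found in 0 of 12 higher genes, 0 of 13 lower genes outside the lists, 1 of 19 lower interferon genes (5.26%, IFIH1) and 3.02% of expressed genes. A match describes letters in this window and not a bound site. The promoters of 3 of the 4 higher genes with the AP-1 motif, and that of CEACAM1, a lower gene outside the lists with the ISRE pattern, are shown for the place of the motif and are printed 5′ to 3′ on the strand of the gene, with the motif in capitals (the AP-1 motif in the first 3, the ISRE pattern in CEACAM1).
SBSN, chr19:35528262-35528561, minus strand: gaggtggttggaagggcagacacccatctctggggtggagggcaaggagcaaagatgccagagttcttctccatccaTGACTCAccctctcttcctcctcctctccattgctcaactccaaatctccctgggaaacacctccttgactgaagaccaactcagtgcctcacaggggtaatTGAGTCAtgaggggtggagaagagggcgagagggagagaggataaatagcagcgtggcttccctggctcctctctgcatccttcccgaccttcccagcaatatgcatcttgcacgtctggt
SCEL, chr13:77535456-77535755, plus strand: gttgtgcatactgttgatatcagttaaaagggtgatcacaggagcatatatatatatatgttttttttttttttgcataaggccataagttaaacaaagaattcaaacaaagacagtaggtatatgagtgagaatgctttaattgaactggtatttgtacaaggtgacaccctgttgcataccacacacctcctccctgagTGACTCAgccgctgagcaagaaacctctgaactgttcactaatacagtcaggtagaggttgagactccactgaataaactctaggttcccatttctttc
IL23A, chr12:56338634-56338933, plus strand: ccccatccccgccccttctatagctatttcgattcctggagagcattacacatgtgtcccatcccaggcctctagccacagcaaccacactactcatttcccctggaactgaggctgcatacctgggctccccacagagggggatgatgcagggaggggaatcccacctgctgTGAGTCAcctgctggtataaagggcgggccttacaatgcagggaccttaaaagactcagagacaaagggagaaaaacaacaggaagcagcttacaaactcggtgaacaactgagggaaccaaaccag
CEACAM1, chr19:42528432-42528731, minus strand: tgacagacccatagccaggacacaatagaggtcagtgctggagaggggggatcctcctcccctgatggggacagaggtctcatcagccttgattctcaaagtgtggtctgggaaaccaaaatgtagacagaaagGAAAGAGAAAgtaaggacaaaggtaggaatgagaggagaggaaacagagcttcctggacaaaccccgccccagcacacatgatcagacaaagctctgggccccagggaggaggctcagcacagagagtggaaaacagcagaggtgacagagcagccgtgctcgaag

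In the other lists the counts in each direction can be read against the 34.6% of all expressed genes that were higher and the 30% that were lower in both pairs. No cell cycle gene of 63 expressed was at least 2-fold apart in both pairs, 29 were higher in both pairs (46%) and 13 lower (20.6%), and the median was 0.06. CDKN1C, an inhibitor of cyclin-dependent kinases, was the member farthest from 0, with 410 and 375 in control cells and 228 and 227 in ARRB1 siRNA cells. Of 10 expressed nicotinic receptor genes 0 passed the limit, 2 were higher in both pairs (20%) and 2 lower (20%), and the median was -0.01 (0.02 after quantile normalization). The subunit CHRNA3 was farthest from 0, with 105.9 and 22.6 in control cells and 124 and 93.6 in ARRB1 siRNA cells, and most of its mean of 1.14 came from the nicotine pair. The subunit CHRNA9 had 95.3 and 91.7 against 66.7 and 66.9. Of 32 expressed genes of arrestins and receptor desensitization 0 passed it, and GNAQ, a G protein α subunit, had 1837 and 1922 in control cells and 1263 and 1515 in ARRB1 siRNA cells. RGS19, a regulator of G protein signaling, was higher, at 595 and 524 against 835 and 710. Among the 20 expressed genes of the RNA interference machinery 0 passed it, 11 were higher in both pairs (55%) and 6 lower (30%). The median of that list was 0.05, and it turned to -0.007 after quantile normalization and to -0.02 with the median over a gene's expressed probe sets. AGO2, an Argonaute protein that cleaves RNA paired with a small RNA, was higher, with 646 and 725 in control cells and 962 and 1000 in ARRB1 siRNA cells (mean 0.52, adjusted p = 0.0188 in limma). DICER1, which processes small RNA precursors, had 2231 and 1842 in control cells and 1798 and 1049 in ARRB1 siRNA cells (mean -0.56, adjusted p = 0.0185 in limma). KITLG, the stem cell factor gene that the study followed, has 4 probe sets on the array. The brightest had 1847 and 1636 against 1332 and 1349, with a mean of -0.37 (adjusted p = 0.053 in limma). The array value that the study reported for this gene came from another probe set, and the signals of the others are not given here.

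Hypoxia and glycolysis genes had a median of 0.14 (0.04 after quantile normalization), with 17 of 32 higher in both pairs (53.1%) and 0 by 2-fold. STC1, stanniocalcin-1, a secreted glycoprotein, led them, with 748 and 751 in control cells and 1221 and 1730 in ARRB1 siRNA cells. DCBLD2, a neuropilin-like receptor in the axon guidance list, was bright and just short of 2-fold in both pairs, with 6225 and 6961 against 11862 and 13088 (mean 0.92, SE 0.08, adjusted p = 6.42e-06 in limma). In the p53 and apoptosis list, TNFRSF10D, a decoy receptor for TRAIL, had 419 and 364 against 726 and 788, while TP53INP1, a p53-induced regulator of stress responses, was lower, with 1502 and 1239 against 831 and 812. LTBP1, which binds latent TGF-β to the matrix, had 1029 and 904 in control cells and 512 and 481 in ARRB1 siRNA cells. INHBB, an activin subunit, had 1423 and 1715 against 706 and 1103. The cholesterol transporters ABCA1 and ABCG1 were both lower, ABCA1 from 2647 and 2160 to 1376 and 1411 and ABCG1 from 501 and 432 to 303 and 262. Of 42 expressed NRF2 and redox genes 24 were higher in both pairs (57.1%) and 0 by 2-fold, with a median of 0.10 that turned to -0.02 after quantile normalization, and of 38 expressed genes of ATF4 and amino acids 21 were higher (55.3%) and 0 by 2-fold, with a median of 0.09. The stemness list ran lower, with 12 of 24 genes lower in both pairs (50%), 0 by 2-fold and a median of -0.10. In it SOX2 had 2139 and 2268 against 1507 and 1400 and SOX9 2177 and 2227 against 1640 and 1477. Of 24 expressed lung epithelial genes 1 was at least 2-fold lower, LAMP3, which the core interferon list also holds, and 11 were lower in both pairs (45.8%). CEBPA, a transcription factor of alveolar cells, had 833 and 917 against 539 and 575.

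**Figure D4:**
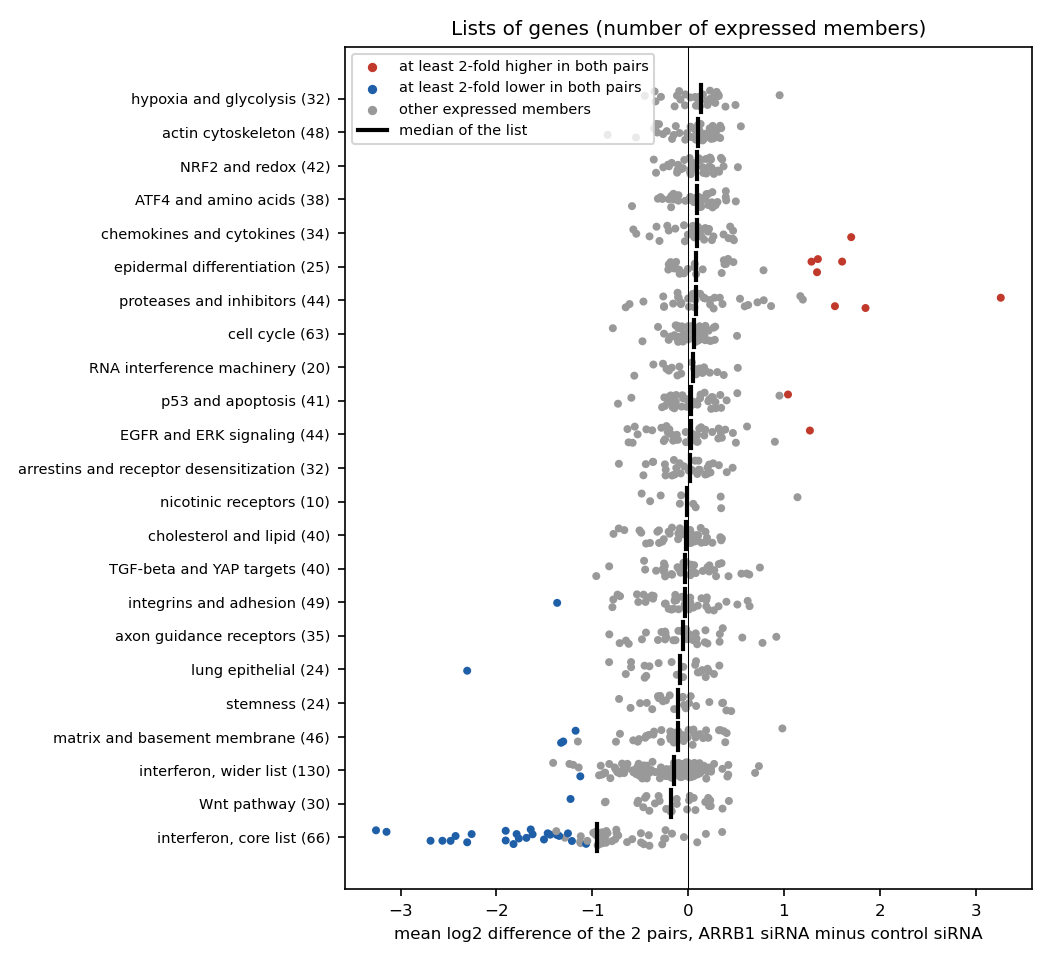
Each point is the mean log2 difference of an expressed gene over the 2 pairs (x axis), in 1 row per list, with the number of expressed members in brackets and a black bar at the list's median. Genes at least 2-fold higher in both pairs are red and those lower are blue. The core interferon list has its median at -0.95, and the medians of the other lists lie between -0.18 and 0.14.

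The 2-fold limit cut through a continuum of values. Just inside it were IL31RA (smaller pair difference 1.02), VNN1 (1.02) and RBM34 (1.03) among the higher genes, and ANPEP and AUH (smaller pair difference 1.01 in size for both) and IQGAP2 (1.01) among the lower. Just outside it were DSG2-AS1 (0.996), BABAM2-AS1 (0.991) and SERPINB7 (0.989) among the higher genes. RAB37, MGAT4A and GRIP1 were the nearest lower genes outside it, with -0.997, -0.981 and -0.969 in the serum starved pair. Median centring of the arrays took BCL2A1, PTPRR, AUH and NID1 under the limit in at least 1 pair, and quantile normalization took PTPRR, ANPEP, AUH, IQGAP2 and NID1. With the median over the expressed probe sets of a gene, HBEGF, PTPRR, ABAT, CEACAM1, COL4A1, DKK3, NID1 and WIPF1 missed it, all in the same direction as before. When a 2-fold difference was asked between every ARRB1 siRNA and every control siRNA array, across treatments too, 15 of the 21 higher and 11 of the 16 lower genes outside the interferon lists passed.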

How the data were processed

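RNA of A549 cells transfected with control or ARRB1 siRNA, serum starved or nicotine treated, was hybridized to 4 arrays, 1 per condition. The intensity values that the authors deposited are linear MAS5 signals (GCOS 1.4 by the submitters' processing notes), scaled so that the mean without the outer 2% at each end was 500.1 on every array. The log2 transformation and gene centring of the study's methods are not in them. Detection calls were not used here. After 62 control probe sets were left out, 54613 remained, of which 41091 had 1 gene symbol, 1801 several and 11721 none in the platform's gene table. No probe set with ARRB2 as its 1 symbol was used.

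Each gene was represented by the probe set of highest mean log2 signal. Differences were taken without floor or pseudocount (Python 3.11.15, pandas 2.3.3, numpy 2.4.6). The 2-fold limit is a description with no test, with precision limited by the number of arrays. limma 3.58.1 in R 4.3.3 fitted siRNA and treatment, with Benjamini-Hochberg adjustment over 12521 genes. SDs beside genes are over the 500 genes nearest in mean signal.

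In simulated data (12521 genes, 50 per size), this fit called 43 genes at a log2 change of 1, 40 at -1, 50 at 2, 45 at -2 and 14 unchanged genes. The 2-fold rule called 14, 11, 50, 47 and 7. The simulated noise was normal, independent between arrays and of the same SD for all genes of like mean signal. The trend setting of the fit assumes such a spread, and real genes need not have it. These counts therefore do not give the rate of false calls in the real data.

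The members and gene lists were chosen with earlier results of these data known. Named genes were ARRB1, the 15 highest and 15 lowest outside the 2 interferon lists (without an opposite expressed probe set), 6 interferon genes and up to 4 per list; the other members were named to account for all. Alternatives were other scalings, floors, limits, filters, probe set choices and fits. Gene symbols are those of the array's table and promoters those of RefSeq.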

Additional observations from a re-analysis of the deposited data

Results flagged for a closer look

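In all, 4 genes were at least 2-fold apart in opposite directions in the 2 pairs, and their difference between pairs was not tested. CCDC33 was at 1.56 without nicotine and at -1.06 with it, a change of -2.61 between them. KLHL36 had 1.63 and -1.50, a change of -3.13, from 708 and 1997 in control cells to 2193 and 707 with ARRB1 siRNA. KHDRBS3, an RNA-binding protein, had -1.10 and 2.74, a change of 3.84. LINC01503, a non-coding RNA, had -1.18 and 1.39, a change of 2.57.

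The medians of 6 gene lists had opposite signs in the 2 pairs, also untested. The lung epithelial list had 0.003 without and -0.23 with nicotine, a difference of -0.23. The arrestin and receptor desensitization list had -0.031 and 0.11 (difference 0.14), and the list of TGF-β and YAP targets -0.070 and 0.044 (difference 0.11). The lists of p53 and apoptosis, of cholesterol and lipid genes and of axon guidance differed by -0.053, -0.031 and -0.031.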

How the results depend on the processing

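The direction of the mean difference was kept by all 62 genes under median centring, quantile normalization and the median over a gene's expressed probe sets, and 57, 56 and 52 of them kept the 2-fold limit in both pairs. Median centring moves all genes of a pair by one small constant, so that it could not turn a 2-fold difference. The median over probe sets could change only genes with another expressed probe set. These were 2 higher genes, 7 lower genes outside the interferon lists and 8 on them. The 10 genes that fell under the limit with it were all among these. With that median over probe sets, 10 lower genes outside the interferon lists remained. Other limits and filters moved the counts of higher and lower genes as follows, with the lower ones outside the interferon lists given last. A 1.5-fold limit gave 126 and 215 (152 outside), and a 3-fold limit 5 and 11 (0 outside). Without a filter on low signals there were 415 higher (414 outside) and 325 lower (298 outside), with a filter at the 25th percentile 164 and 143 (116 outside), and at the 75th percentile 3 and 24 (6 outside). The same direction with a mean of 2-fold gave 60 and 78 (43 outside). The serum starved pair alone gave 127 and 98 (73 outside) and the nicotine pair alone 110 and 175 (124 outside). By construction, a lower limit or filter admits more genes, and the rule for a single pair asks for 1 difference where the rule for both asks for 2. The limma fit called 455 higher and 478 lower genes. It called 0 and 0 with plain eBayes (1933 genes at an unadjusted p below 0.05), 68 and 156 without the nicotine term, 183 and 298 after median centring, 260 and 353 after quantile normalization, and 109 and 192 with no filter, and the cause was not tested. Floors on the signal, leaving out _x_at probe sets and the core interferon list alone moved no count by over 1.5 times. Arrays were paired by treatment throughout, and the fit without the nicotine term is the one without that pairing. With 1 array per condition, leaving out an array leaves the other pair alone, as given above.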
